A study of Rattus norvegicus with 30 samples.

Results

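Autosomal CpGs that were nearly free of DNA methylation in the medial prefrontal cortex (mPFC) of rats were examined. A site was taken as unmethylated when it lay on chromosomes 1 to 20 (rn5 genome), had a value in 10 or more of the 30 rats, and had an unweighted mean methylation ratio at or under 0.1 over all rats with a value. There were 2751 such CpGs among 64729 autosomal CpGs with values in 10 or more rats, a share of 4.25% (95% Wilson interval 4.10 to 4.41, counting error only). They were part of 79774 autosomal and 85484 deposited CpGs. The low mean ratio was therefore the choice itself and is described here without a test. The choice did not compare groups of rats, but a low mean over young and aged rats together limits the difference between them that a chosen site can show.

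The measurement was whole genome bisulfite sequencing, by which unmethylated cytosines are converted and read as thymine, and the ratio is the share of reads that still read cytosine. The 30 animals were males of the Fischer 344 strain. Of these, 10 were young, at 5 to 6 months of age, and 20 were aged, at 17 to 22 months of age. All had been food-restricted and trained on an operant set shifting task, a test of cognitive flexibility, before the prelimbic and infralimbic mPFC was collected. By their performance on that task, 9 of the aged rats were classed as impaired (AI) and 11 as unimpaired (AU). The tissue was bulk cortex, so each ratio is an average over neurons and glia, and a change in cell makeup and a change within cells cannot be told apart. Each rat contributed 1 library. A ratio needed at least 5 reads, and the reads behind a single rat's ratio were not used here, so no counting interval was given for it.

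CpG methylation is written on both strands of DNA and is copied by maintenance methyltransferases when cells divide, and most CpGs of a mammalian genome carry it. The main exceptions are CpG islands, short stretches dense in CpG that often cover promoters and the start of genes and that stay unmethylated in most tissues. Other stretches of low methylation are found at active regulatory elements, where transcription factors are bound. In adult cortex, neurons carry methylation outside CpG as well, at CHG and CHH positions, where H is any base but G.

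The promoter of Eif3c, which encodes a subunit of the translation initiation factor eIF3, was the only promoter among the unmethylated CpGs that carried a gene name. Its sequence is shown because a boundary between unmethylated and methylated CpGs, given further on, lay at this promoter. The window runs from 250 bases before to 50 bases after the transcription start in RefSeq (GRCr8 build, minus strand, chr1:190583018-190583317), printed 5′ to 3′ with each CG in capitals. This build differs from rn5, so the deposited positions were not placed on it.

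Eif3c: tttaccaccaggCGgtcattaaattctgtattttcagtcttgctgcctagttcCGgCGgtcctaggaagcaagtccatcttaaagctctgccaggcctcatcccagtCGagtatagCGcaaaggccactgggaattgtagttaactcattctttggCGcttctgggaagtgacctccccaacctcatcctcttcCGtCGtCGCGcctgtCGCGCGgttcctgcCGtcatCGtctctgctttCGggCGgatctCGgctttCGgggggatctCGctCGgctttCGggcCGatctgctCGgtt

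It held 24 CG dinucleotides in 300 bases. As many or more were present in 18.0% of 33469 RefSeq promoter windows of that length, whose median was 7. Of the 6 genes named at unmethylated CpGs, this was the 1 matched by symbol in the promoter set.

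The distribution of site means had a low peak separate from the main body. The bin from 0 to 0.1 held 2751 sites, the next bins held 1565 and 1472, and the counts then climbed to 20286 sites between 0.8 and 0.9. Among the unmethylated CpGs the median of site means was 0.0367. A mean of exactly 0 was found at 215 sites, 873 lay at or under 0.02 and 1706 at or under 0.05. The low group was therefore weighted toward 0, with 468 sites under 0.01 and 184 between 0.09 and 0.1. The 3 sites nearest to it on the inside were chr14:48755420 at 0.1 in 10 rats, chr17:76266288 at 0.0999 in 14 rats and chr7:537915 at 0.0998 in 13 rats. The 3 nearest on the outside were chr1:176523119, chr13:38640407 and chr19:5826892, which exceeded 0.1 by less than 0.001. Just outside, 183 other sites had means over 0.1 and up to 0.11.

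**Figure D1:**
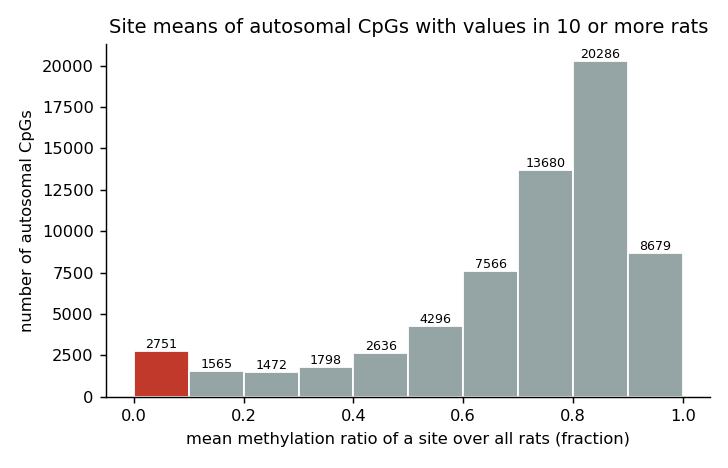
Number of autosomal CpGs (vertical axis) by mean methylation ratio over all rats with a value (horizontal axis, fraction, bins of 0.1), for the 64729 sites with values in 10 or more rats. The red bar holds the 2751 unmethylated CpGs, the next 2 bins are lower, and the highest bin, from 0.8 to 0.9, holds 20286 sites.

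The unmethylated CpGs had values in a median of 19 rats, and 251 of them had a value in every rat. They held 54208 single ratios, of which 67.2% were exactly 0. At the other eligible sites 1.10% of ratios were 0 and the median of site means was 0.788. Only 3.06% of the ratios at unmethylated CpGs exceeded 0.2, which is the step made by 1 methylated read at the minimum of 5 reads. No rat exceeded 0.2 at 1698 of the 2751 sites, and the median of the highest rat at a site was 0.2.

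Single rats stood apart at a few sites. A ratio of 0.5 or more was seen 48 times, at 45 sites, and at 42 of these in exactly 1 rat. The highest was 0.714 at chr13:38639575 in AU rat 2182, where the other rats had a mean of 0.0708. At chr4:142078638 AI rat 2191 read 0.6 and the other rats had a mean of 0.0406. At chr19:46946744 AU rat 1936 read 0.6 and 17 of the other rats read 0. AI rat 2180 held the highest ratio at 5 sites, all at 0.6 and all between chr9:11337056 and chr9:11337103. At chr9:11337103 another rat read 0.6 too. Young rat 2175 was the highest close by, at chr9:11337092 (0.6) and chr9:11337115 (0.5). The 5 sites of rat 2180 lie within 100 bp of each other, so that the same reads may have covered several of them. The number of ratios of 0.5 or more was 0 to 5 per rat.

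Position along the genome was not used by the choice beyond the autosomes. Chromosome 9 held 419 unmethylated CpGs, 10.7% of its eligible sites. Chromosome 13 held 307 (8.40%) and chromosome 4 held 299 (7.71%). Chromosome 10 was lowest, with 21 (2.02%), followed by chromosome 18 with 30 (2.17%). The 8 clusters with the most unmethylated CpGs, described next, all lay on chromosomes 4, 9 and 13.

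Sites less than 1000 bp apart were joined into clusters. The 2751 unmethylated CpGs formed 1380 clusters, of which 1128 were lone sites (41.0% of the sites), 189 had 2 to 4 sites (450 sites) and 63 had 5 or more (1173 sites, 42.6%). Within the spans of those 63 clusters, 62.8% of 1867 eligible CpGs were unmethylated by the rule. Sites in clusters of 5 or more had a mean ratio of 0.0366 and lone sites 0.0448. Means at or under 0.05 were found at 69.7% of the clustered and 56.1% of the lone sites. Lone sites therefore sat closer to the upper boundary of the choice than clustered sites did.

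The 8 largest clusters held 488 sites (17.7%). The largest were chr13:95679624-95681333 and chr4:142114558-142116761, with 80 unmethylated CpGs each and mean ratios of 0.0226 and 0.0148. In the first, 80 of 85 eligible CpGs were unmethylated. In the second, 24 of 104 eligible CpGs were not, with means up to 0.811, so that a methylated stretch lay inside the cluster. The cluster at chr9:7321359-7322527 held 73 unmethylated CpGs at a mean of 0.0272.

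Among the 8 largest, the 1 cluster with no eligible CpG above the boundary was chr13:94070902-94071125, where 63 of 63 eligible CpGs within 224 bp were unmethylated, at a mean of 0.0180. On chromosome 9, the cluster at chr9:11337005-11337685 had 59 sites at a mean of 0.0348, chr9:1391927-1392280 had 50 at 0.0307 and chr9:11340529-11340793 had 41 at 0.0294. The cluster at chr4:142078479-142078681 had 42 sites and the highest mean of the 8, 0.0549, with 9 eligible CpGs above the boundary, up to 0.758.

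**Figure D2:**
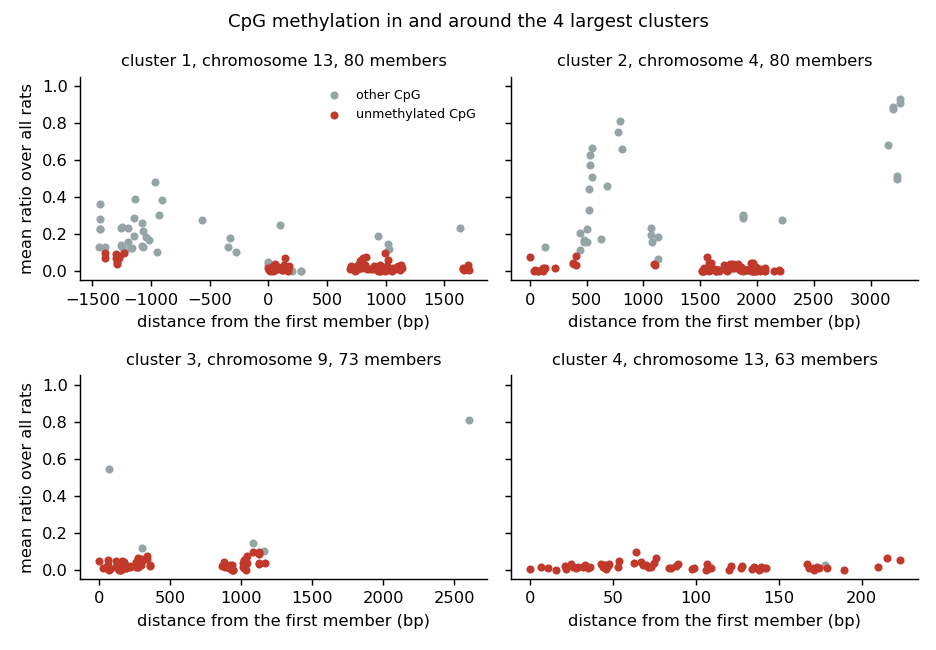
Mean methylation ratio over all rats (vertical axis) against distance from the first unmethylated CpG of the cluster (horizontal axis, bp) for the 4 largest clusters. Red points are unmethylated CpGs and grey points are all other deposited CpGs, also those with values in under 10 rats, within the cluster and 1500 bp on each side. In the second cluster grey points rise to 0.811 between 2 stretches of red points, and in the fourth no eligible site stands above 0.1.

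The unmethylated CpGs lay in stretches with more deposited CpGs. Within 500 bp the median number of other deposited CpGs was 11 (quartiles 3 and 37), against 5 (2 and 14) at the other eligible sites. It was 43 at clustered and 2 at lone unmethylated sites, so that the lone sites did not share this feature. The contrast between them was in part fixed, since clusters were formed from sites close together. The share of unmethylated CpGs was 15.7% among sites with 40 or more such neighbours and 5.77% among those with 20 to 39. It was between 2.74% and 3.30% among those with 1 to 19, and 4.71% among the sites with none. Deposited CpGs stand for coverage as well as for sequence, and the part of coverage was not tested.

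Cytosines on the 2 strands of the same CpG occupy adjacent positions and are counted as separate sites. Where 1 CpG directly follows another, cytosines of these 2 CpGs are adjacent as well, and such pairs were not set apart. Of 7230 adjacent pairs with values in 10 or more rats at both positions, 311 had both sites unmethylated and 106 had 1. An unmethylated CpG with such a partner was counted 728 times, in each of its pairs. The partner was unmethylated in 85.4% of these cases. The partners above the boundary had a median of 0.153, and 67 of the 106 were at or under 0.2. At the other extreme, the partner exceeded 0.5 in 7 cases, with a highest mean of 0.911. Whether these pairs were the 2 strands of 1 CpG was not tested. Among these partners was chr9:7321433, at 0.546, which had 2 adjacent positions and is described further on.

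CpGs with values in fewer than 10 rats did not enter the choice. Within 100 bp of an unmethylated CpG there were 409 such sites, with a median ratio of 0.148, with 41.3% at or under 0.1 and 32.8% over 0.5. At over 100 and up to 1000 bp there were 610, with a median of 0.722 and 9.67% at or under 0.1. At over 1000 and up to 10000 bp the share was 2.80% of 927 sites, and beyond 10000 bp it was 1.83% of 13099 sites, with a median of 0.821. Ratios at or under 0.1 were thus most frequent within 100 bp, where they lay beside methylated sites, and were rare beyond 1000 bp. The same animals, in part the same reads and in part the 2 strands of the same CpG gave both sets of sites, and no test was made over them.

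Methylation outside CpG was compared within each rat. Near unmethylated CpGs (within 100 bp) the mean CHG ratio per rat was 0.0238 ± 0.000831 (SD, n = 30), and near other CpGs only it was 0.0223 ± 0.000664 (n = 30). It was lower near unmethylated CpGs in 1 of 30 rats. The mean CHH ratio was 0.0161 ± 0.000614 near unmethylated CpGs and 0.0164 ± 0.000695 near other CpGs, and was lower near unmethylated CpGs in 24 of 30 rats. Ratios at this floor leave no room for a drop of the size seen at CpGs. The part that incomplete conversion has in these non-CpG ratios was not tested.

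Gene names were taken only where a site stood at an rn5 position annotated by the study. Of 615 annotated positions, 7 were unmethylated CpGs, and 168 unmethylated CpGs lay within 1000 bp of an annotated position, beside 34 genes. Those positions had been selected by the study for their relation to age or to behaviour, and also to RNA levels, in these same rats. The list is therefore not independent evidence of any direction. LOC100360856, on chromosome 9, had the most, 95 unmethylated CpGs with a mean of 0.0297 between chr9:7412743 and chr9:7457510. Ssr3, which encodes a subunit of the translocon-associated complex of the endoplasmic reticulum, had 15 (mean 0.0554) beside an intronic position. RT1-CE4, a class I gene of the rat major histocompatibility complex, had 4 with a mean of 0.00714 beside an exonic position.

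At the Eif3c promoter 22 CpGs were deposited, and their order along the chromosome showed a boundary. The first 12, from chr1:204961397 to chr1:204961612, had means between 0.0252 and 0.202, and 5 of them were unmethylated by the rule. The next 10, from chr1:204962042 to chr1:204962595, had means between 0.781 and 0.984. Between position 204961612, at 0.0348 in 13 rats, and position 204962042, at 0.984 in 8 rats, no CpG was analysed here. The 22 CpGs thus include sites with values in under 10 rats. Both age groups showed the same step, since the aged means were 0.0185 and 1 and the young means 0.0714 and 0.958 at those positions.

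**Figure D3:**
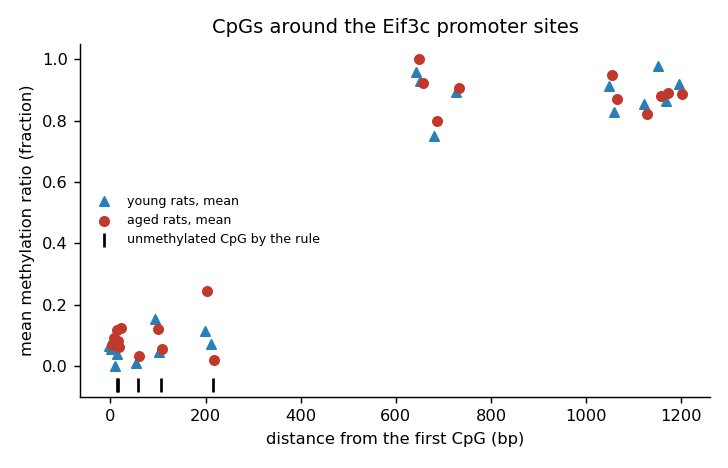
Mean methylation ratio (vertical axis, fraction) of the 22 CpGs at the Eif3c promoter against distance from the first of them (horizontal axis, bp). Triangles are means of young rats, circles means of aged rats, and black ticks mark the 5 unmethylated CpGs. The first 12 CpGs average between 0.0252 and 0.202 over all rats and the other 10 between 0.781 and 0.984.

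Among these promoter sites, chr1:204961410 read 0 in all 4 young rats. In the 13 aged rats it ran from 0 to 0.25 with a median of 0.111, and 5 read 0. The groups overlapped at 0, and the difference of 0.0825 did not pass an exact permutation test (2-sided, p = 0.0908, n = 13 and 4). The other annotated promoter site, chr1:204961612, read 0, 0, 0.143 and 0.143 in the 4 young rats and 0 in 8 of 9 aged rats, the ninth reading 0.167 (exact permutation p = 0.203). The direction thus differed between these sites, which lie 202 bp apart, and the groups overlapped at both. The unadjusted p of the test used at all CpGs was 0.00293 at chr1:204961410, with an adjusted p of 0.425, so that the 2 tests fell on different sides of 0.05 there.

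Unmethylated CpGs beside 4 other named genes had values in 10 to 15 rats each. LOC100360856 at chr9:7412846 (intron) read 0, 0, 0, 0.1 and 0.143 in 5 young rats and between 0 and 0.2 (median 0.0455) in 10 aged rats. It lay among 28 other unmethylated CpGs within 500 bp. AABR06047140.1 at chr7:2197740 (exon) read 0 in 9 of 10 aged rats and 0, 0 and 0.222 in 3 young rats, and its neighbours were low too, with a median of 0.0571 over 7 CpGs. The groups overlapped at both sites, and neither difference passed an exact permutation test (p = 0.664 and 0.231).

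By contrast, the other 2 stood alone in methylated surroundings. Nlrc5 at chr19:10912214 (intron) encodes a regulator of class I histocompatibility genes. It read 0, 0, 0.2 and 0.5 in 4 young rats and 0 in 5 of 6 aged rats, with neighbours at a median of 0.703. LOC100364581 at chr15:9490216 (intron) read 0, 0 and 0.125 in 3 young rats and 0 to 0.222 in 8 aged rats, with neighbours at a median of 0.792. The differences between aged and young rats were -0.142 and 0.0748 and did not pass an exact permutation test (p = 0.4 and 0.236).

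The first question of the study's design, whether methylation differs with age, was asked of the unmethylated CpGs as a whole from the mean ratio of each rat. The 10 young values lay between 0.0378 and 0.0454 (median 0.0411), and their mean was 0.0411 ± 0.00221 (SD, n = 10). The 20 aged values lay between 0.0349 and 0.0512 (median 0.0413), and their mean was 0.0415 ± 0.00381 (n = 20). The aged range contained the young range, and the difference of 0.000402 was smaller than either SD. These means use the same ratios as the choice, which left out sites with a large age difference, so a small difference was in part fixed and is given as a description. For the 251 sites measured in all rats the means were 0.0393 ± 0.00428 in young and 0.0398 ± 0.00506 in aged rats. The share of ratios at 0 was 67.5% in young and 67.0% in aged rats.

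The AI rats had a mean of 0.0410 ± 0.00491 (n = 9) and the AU rats of 0.0419 ± 0.00281 (n = 11). Their difference of -0.000834 was smaller than either SD, and leaving out each rat in turn moved it between -0.00211 (without AI rat 2191) and -7.31e-05 (without AI rat 1935). With 1 site per cluster it was -0.00347, and the SD between rats was not computed for that smaller set of sites. Without AI rat 2191 the difference between aged and young rats became -0.000110. The lowest rat, AI rat 1935 at 0.0349, and the highest, AI rat 2191 at 0.0512, were both aged impaired. The 3 rats with the highest means differed in coverage, since AI rat 2191 had values at 1147, AU rat 2182 at 877 and AI rat 1925 at 2471 of the unmethylated CpGs. Over all rats the number ran from 877 to 2471, with a median of 1925.5.

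Rat identifiers fell into 3 number series, called A, B and C here, which may mark separate groups of animals. Series A held 11 aged and 3 young rats, B held 8 and 3, and C held 1 and 4. Within series A the aged rats were lower by 0.00193 in the mean over the unmethylated CpGs, with 0.0409 in aged and 0.0428 in young rats. Within series B they were higher by 0.00176, and in series C the 1 aged rat was higher by 0.00130 than the mean of the 4 young rats. The sign of this small difference therefore depended on the series. AI rats were lower than AU rats by 0.00163 in series A, and in series B the difference was 6.78e-06.

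**Figure D4:**
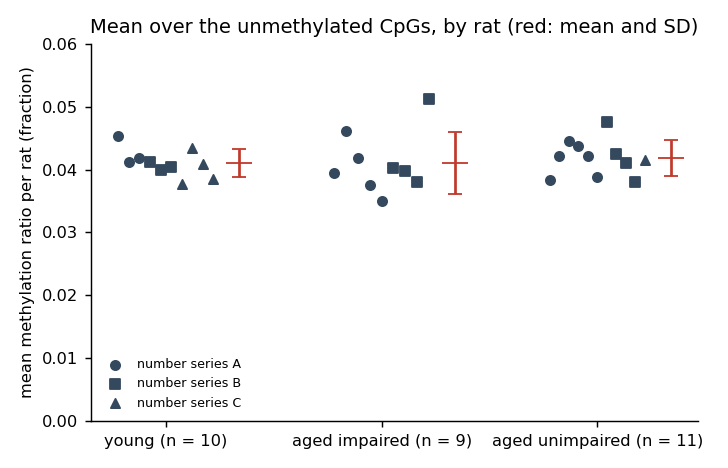
Mean methylation ratio over the unmethylated CpGs with a value (vertical axis, fraction) in each rat, by group, with the point shape giving the number series. Red marks give the mean and SD of a group. All rats lie between 0.0349 and 0.0512, and the 3 groups overlap.

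Single sites were then compared with a 2-sided test of the difference in means that allows unequal variances, run at every deposited CpG, with Benjamini-Hochberg adjustment over all of them. Of the 2751 unmethylated CpGs, 215 read 0 in every rat and could not be tested. Among the other 2536, 139 passed an unadjusted p of 0.05 between aged and young rats, or 5.48%, where 6.19% of all 84624 testable CpGs did. The share of unmethylated CpGs that passed was thus below that of all CpGs, but without series C it was above, with 6.84% against 6.44%. The choice left out sites with a large age difference, so that a lower share was in part fixed. None passed after adjustment, where 60 of all CpGs did (0.0709%). The median difference between aged and young rats was 0.000279 over the unmethylated CpGs (1383 higher and 1153 lower in aged rats, 215 at 0), and over all CpGs it was -1.33e-08.

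The direction of these sites depended on the test. By this unequal-variance test 115 were hypermethylated in aged rats, 4.53% of those tested against 2.44% of all CpGs, and 24 were hypomethylated, 0.946% against 3.76%. By limma's moderated test on the same ratios, which pools the spread over sites, 89 passed, of which 18 were higher and 71 lower in aged rats. On logit ratios limma gave 35 higher and 87 lower, and a fit that also held the number series gave 17 higher and 74 lower. None passed after adjustment in these 3 fits. The sites passing were 3.24%, 4.43% and 3.31% of those tested on the ratios, on logit ratios and with the series. These shares are of all 2751 sites, with the 215 at 0 in every rat, where the unequal-variance test had 2536. Over all 85484 CpGs the same fits gave 2854 higher and 2823 lower (6.64%), 2522 and 3148 (6.63%), and 2734 and 2822 (6.50%). No direction with age can therefore be given for the unmethylated CpGs.

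The calls were split by ratios of 0, which fixes a direction in part, since a site with every young rat at 0 can only be higher in aged rats. At 475 unmethylated CpGs every young rat with a value read 0 while some aged rat did not, and 74 of the 115 hypermethylated sites were among these, where limma on the ratios gave 7. A median of 5 young rats and 11 aged rats had a value there. At the 109 sites where every aged rat read 0, the unequal-variance test passed none and limma 10, with a median of 10 aged and 5 young rats. Where both groups had a ratio above 0, 65 of 1952 sites passed the unequal-variance test (3.33%), 41 higher and 24 lower, and limma gave 11 higher and 61 lower. Of all sites, 18 were higher and 20 lower by both tests, and none was called in opposite directions. The hypermethylated sites had a median aged mean of 0.0638 and a median young mean of 0, and their median difference was 0.0587. The hypomethylated sites had medians of 0.0378 in aged and 0.136 in young rats, with a median difference of -0.0952.

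**Figure D5:**
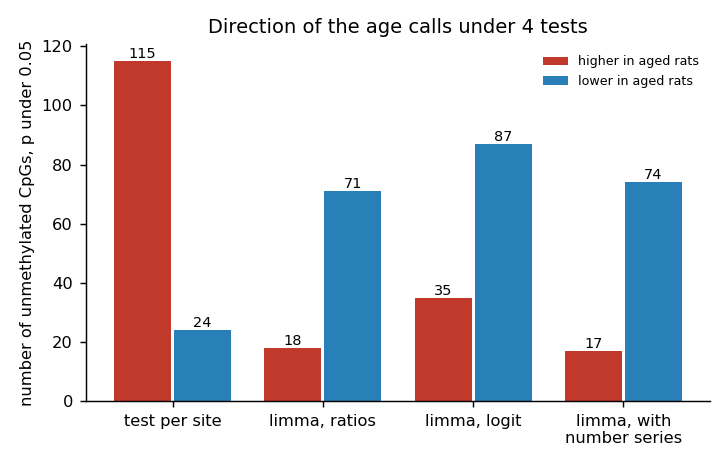
Number of unmethylated CpGs with an unadjusted p under 0.05 between aged and young rats (vertical axis) under 4 tests (horizontal axis), with red bars for sites higher and blue bars for sites lower in aged rats. The unequal-variance test at each site gives 115 higher and 24 lower, while the 3 limma fits give 17 to 35 higher and 71 to 87 lower.

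The 10 unmethylated CpGs with the smallest p between aged and young rats, among those with 5 or more rats per group, were examined rat by rat with a permutation test. They had been picked for their p, and their adjusted p from the unequal-variance test over all CpGs lay between 0.154 and 0.513. At 5 sites every young rat read 0, at 2 most young rats did, and at 3 the young rats were the higher group.

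The smallest p belonged to chr19:67048390, which had a value in every rat. The young ratios lay between 0.075 and 0.223 (median 0.121), none at 0. The aged ratios reached from 0 to 0.147 (median 0.0263), and 9 of 20 read 0. The means were 0.129 ± 0.0438 (SD, n = 10) and 0.0498 ± 0.0544 (n = 20), a difference of -0.0793 (permutation test, 2-sided, p = 0.00062). In series A the aged mean was 0.0118 and the young mean 0.177, in series B 0.108 and 0.121, and in series C the 1 aged rat read 0 and the young mean was 0.099. The difference was thus large in series A and C and small in series B. Whether the series differed was not tested.

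This site lay within 1000 bp of 8 positions annotated as exon or promoter of 5S_rRNA, the gene of a ribosomal RNA that is repeated in many copies, among which short reads may not be placed with certainty. Within 1000 bp 3 CpGs were unmethylated, this one included. The other 98 had a median of 0.310, with means from 0 to 0.890, and 93 of them were lower in aged rats. The second of the 3, chr19:67048129, read 0 in all 30 rats in the midst of these partly methylated CpGs, and the third, chr19:67048614, had a mean of 0.00939.

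The other two sites that were lower in aged rats had no annotated gene. At chr11:22756909 the 9 young rats ran from 0 to 0.267 with a median of 0.188, and 12 of 19 aged rats read 0 with a highest ratio of 0.286. The difference was -0.113 (permutation p = 0.00398), and it was negative in each series. At chr13:38902002 the 7 young rats ran from 0 to 0.0909 with a median of 0.0769, and 14 of 18 aged rats read 0 with a highest ratio of 0.1. The difference was -0.0493 (permutation p = 0.00148). The groups overlapped at both sites. The CpGs around them were methylated, with medians of 0.833 over 10 and 0.672 over 19 CpGs within 500 bp.

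At 5 sites every young rat read 0. At chr8:126196401, 8 young rats read 0 and 9 aged rats ran from 0 to 0.167 with a median of 0.1 and 2 at 0, a difference of 0.0873 (exact permutation p = 0.00226). At chr4:142078546, 9 young rats read 0 and 17 aged rats ran from 0 to 0.214 with a median of 0.05 and 7 at 0, a difference of 0.0694 (permutation p = 0.013). Both lay in stretches where most CpGs were low, and the aged rats above 0 were a majority.

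The difference did not pass the permutation test at the other 3 of these sites. It was 0.0587 at chr2:16261434 (6 young and 19 aged rats, exact p = 0.079), 0.0936 at chr14:54371453 (5 and 15 rats, exact p = 0.0818) and 0.0377 at chr9:1392060 (8 and 17 rats, permutation p = 0.0596). At the first and the last of them 10 aged rats read 0 like the young rats. Thus a small p from the unequal-variance test at a site with all young rats at 0 was not always matched by the permutation test.

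At 2 sites most young rats read 0. At chr1:224585725, 8 of 10 young rats read 0 and the other two read up to 0.1, while 19 aged rats ran from 0 to 0.167 with a median of 0.0769. The difference was 0.0578 (permutation p = 0.00634), with 0.0973 against 0.0492 in series A and 0.037 against 0 in series B. At chr6:150005727, 7 of 9 young rats read 0 and 20 aged rats ran from 0 to 0.4 with a median of 0.0774, a difference of 0.0802 (permutation p = 0.0377).

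Clusters were read for runs of sites in 1 direction, by the unequal-variance test at p under 0.05. The run with the most was chr9:7412743-7413330, within the LOC100360856 stretch, where 6 of 29 unmethylated CpGs were higher in aged rats and none lower. The mean ratio per rat there was 0.0697 ± 0.0378 in aged and 0.0426 ± 0.0279 in young rats, so that the difference was smaller than the SD of the aged rats. At chr4:142078479-142078681, 5 of 42 were higher, with cluster means of 0.0589 ± 0.0279 and 0.0486 ± 0.0208. At chr4:142073326-142073375, 4 of 9 were higher, with 0.0753 ± 0.0578 and 0.0239 ± 0.0187. At chr9:7321359-7322527, 4 of 73 were higher and none lower, while the cluster mean was 0.0314 ± 0.0163 in aged and 0.0340 ± 0.0175 in young rats. Of all CpGs 2.44% were higher by this test. By limma these 4 clusters held 1 higher and 1 lower, 1 higher, none, and 3 lower sites, in the same order. These clusters were picked for their number of sites and sites within a cluster share reads, so no test was made.

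Over the unmethylated CpGs of the largest clusters the age groups were close, as the choice by a mean over both ages favours. In chr13:95679624-95681333 the mean was 0.0230 ± 0.00957 in aged and 0.0226 ± 0.00732 in young rats. In chr4:142114558-142116761 the aged mean was 0.0144 ± 0.00620 and the young mean 0.0185 ± 0.00749. In chr13:94070902-94071125 it was 0.0162 ± 0.00763 (19 aged rats with a value) and 0.0193 ± 0.00709. In each of the 8 largest clusters the difference over these sites was smaller than the SD of the young rats.

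The choice left out CpGs within these clusters at which the age groups lay far apart. Of the 52 eligible CpGs in the 8 spans that were not unmethylated by the rule, 9 differed between aged and young rats by over 0.5, 8 of them higher in aged rats, and over all 64729 eligible CpGs there were 20 such sites. They were singled out after their values were seen, and no test was made. At chr4:142116432 all 10 young rats read between 0 and 0.0294 and the 4 aged rats with a value read 1. At chr9:7321433 the 10 young rats read between 0 and 0.0588 and 13 aged rats between 0.75 and 1. At chr9:11337566 the order was the opposite, with 5 young rats between 0.714 and 1 and 14 aged rats between 0 and 0.3.

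The same aged rats had other ratios in the second set of calls at 8 of these 9 sites, which were the 8 that were higher in aged rats. Every shared ratio differed at 4 of them and part of the shared ratios at the other 4. At chr4:142116432 the set for AI against AU rats gave values for 20 aged rats with a mean of 0.00335, and each of the 4 shared ratios differed. At chr13:95679723 all 3 aged rats read 1, and the other set gave a mean of 0.0480 in 16 aged rats. At chr9:7321433 the mean was 0.441 in 15 aged rats, and 6 of 13 shared ratios differed. At chr9:11337566 none of the 14 shared ratios differed.

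The second question of the design was whether methylation differs between AI and AU rats, which the study called from a separate set of sites. That set held 2612 of the 2751 unmethylated CpGs. In both sets together 36034 ratios were shared and 21 differed, at 9 sites. Of 2328 sites that could be tested, 75 passed an unadjusted p of 0.05 by the unequal-variance test, or 3.22%, against 4.14% of all 79992 CpGs tested. In AI rats 30 were higher, 1.29% against 2.11% of all CpGs, and 45 lower, 1.93% against 2.04%. None passed after adjustment, where 7 of all CpGs did (0.00875%). By limma on the ratios 69 passed, 35 higher and 34 lower, and none after adjustment. That was 2.64% of the 2612 unmethylated CpGs, where limma passed 5.51% of all 80903 CpGs, 2128 higher and 2331 lower. The unmethylated CpGs thus passed no more often than CpGs in general, and the lean toward lower ratios under the unequal-variance test was absent under limma.

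The 5 unmethylated CpGs with the smallest p between AI and AU rats, again picked for their p, had an adjusted p of 0.996 each. At chr6:25669594, 8 of 9 AU rats read 0 and the ninth 0.0769, while AI rats ran from 0 to 0.25 with a median of 0.125. The difference was 0.134 (exact permutation test, 2-sided, p = 0.000782, n = 9 and 9). The 7 young rats there ran from 0 to 0.4 with a median of 0.167, so that it was the AU rats that stood low.

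AI rats were the lower group at the other 4 sites. At chr4:209841548 all 9 AI rats read 0, and 10 AU rats ran from 0 to 0.182 with 2 at 0, a difference of -0.0876 (exact permutation p = 0.000714). Young rats overlapped both groups there, with 6 of 10 at 0. At chr1:56881760, 6 of 8 AI rats read 0 and 9 AU rats had a median of 0.111, a difference of -0.0876 (exact permutation p = 0.0037). At chr4:142078613, in the same dense cluster as chr4:142078546, 6 of 9 AI rats read 0 and 1 of 9 AU rats did, a difference of -0.0722 (exact permutation p = 0.00263). At chr7:15142399, 5 of 9 AI rats read 0 and 11 AU rats had a median of 0.0667, a difference of -0.0379 (exact permutation p = 0.00439). Groups overlapped at each of the 5 sites. At chr4:209841548, chr1:56881760 and chr7:15142399 the surrounding CpGs were methylated, with medians between 0.753 and 0.841.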

How the data were processed

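The files held, for each rat and cytosine, the methylation ratio, a fraction from 0 to 1 that the authors computed as methylated over all reads, for 10 young and 20 aged rats. Reads had been trimmed with Trimmomatic, filtered for unconverted bases, aligned to rn5 with BSMAP and called with cscall (versions not given in the sources used here). What the filter for unconverted bases did to non-CpG ratios was not tested. Ratios rest on at least 5 reads in at least 3 rats per group. The reads behind each rat's ratio were not used here, so no count model was fitted. The sets for aged against young rats (CpG, CHG, CHH) and for AI against AU rats (CpG) were used, 110 columns in 4 tables. Positions are as deposited. No rn5 annotation was used, and gene names are those of the study's annotated positions.

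The members, lists and rules for naming sites were chosen with earlier results of these data known. Named were CpGs at annotated positions (1 of them is not reported here), the 10 with the smallest p for age (5 or more rats per group), the 5 with the smallest p for impairment, the 8 largest clusters, the sites nearest 0.1, and those where a single rat read 0.5 or more.

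Welch's test (unequal variances), as in the study's methods for age, was run at every deposited CpG and adjusted by Benjamini-Hochberg. For impairment it compared the AI and AU groups. Single sites were compared by permutation of the difference in means, 2-sided, exact up to 200000 arrangements and otherwise with 100000 resamples. The code was tested on simulated ratios. Alternatives were limma (ratios, logit with an offset of 0.05, number series as covariate), other thresholds, 1 site per cluster and leaving out each series. limma 3.58.1 ran in R 4.3.3, and all else in Python 3.11.15 with scipy 1.17.1, numpy 2.4.6, pandas 2.3.3 and matplotlib 3.10.9.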

Additional observations from a re-analysis of the deposited data

Results flagged for a closer look

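Groups of 4 to 10 rats were searched for a rat that lay far from the nearest other rat relative to the range of its group (Dixon's criterion at 95%). Of 54 groups, 12 held such a rat, where chance gives about 1 in 20 groups under a bell-shaped spread, which ratios with many zeros do not follow.

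For the mean over the unmethylated CpGs with a value in every rat, young rat 121445 was low at 0.0285, with the next young rat at 0.0358, and AI rat 2191 was high at 0.0535, with the next AI rat at 0.0403. At the Eif3c promoter site chr1:204961612, AU rat 1932 read 0.167 and the other AU rats 0. At chr1:224585725, AI rat 1935 read 0.167 and young rat 1919 read 0.1. At chr6:25669594, AU rat 2185 read 0.0769 and the other AU rats 0. At chr7:2197740 in AABR06047140.1, AI rat 1924 read 0.167 and the other AI rats 0. At chr7:15142399, young rat 2176 read 0.129, with the next at 0.0645. At chr11:22756909, AU rat 2189 read 0.286, with the next at 0.0667. At chr13:38902002, AI rat 1924 read 0.0625, AU rat 1932 read 0.1, and young rat 121412 read 0 where the next young rat read 0.0526.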

How the results depend on the processing

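For aged against young rats, the count of 139 unmethylated CpGs past an unadjusted p of 0.05 became 89 with limma on the ratios, 91 with limma and the number series as covariate, 70 at a mean at or under 0.05, 249 at or under 0.2 (10 of these also past the adjusted threshold), 80 with values in 20 or more rats, 13 in all 30 rats, 71 with 1 site per cluster, and 41 (25 higher, 16 lower) without series A. It became 65 where both groups had a ratio above 0, an alternative chosen after seeing the data. The other 5 alternatives gave 98 to 143. Without series A, B and C in turn, 2.79%, 4.80% and 6.84% of the testable unmethylated CpGs passed. Of all CpGs 4.62%, 6.68% and 6.44% did. For AI against AU rats the count of 75 became 25 at or under 0.05, 137 at or under 0.2, 10 in all 30 rats, 45 with 1 site per cluster, 11 without series A, and 49 where both groups were above 0 (chosen after seeing the data), and 51 to 106 under the other 8. Without series A, B and C in turn, 1.30%, 2.98% and 2.99% of the testable unmethylated CpGs passed between AI and AU rats. Of all CpGs 3.78%, 4.19% and 4.15% did. Stricter limits on sites or rats test fewer sites, and otherwise the cause was not tested. The share of unmethylated CpGs, 4.25%, became 4.59% by the median over rats, 4.80% with values in 20 or more rats and 4.46% in all 30 rats, and stayed at 4.24% with young and aged means weighted equally. The difference in mean ratio moved by less than 1 SD between rats under all 6 alternatives, from -0.000377 to 0.00188 for age and from -0.00347 to 0.000173 for impairment. Leaving out each rat in turn, added after seeing the data, gave -0.000110 to 0.000879 for age and -0.00211 to -7.31e-05 for impairment. No paired analysis was possible because the groups held different animals, and the replicate numbers only name the rats of a group. Ratios at 5 reads move in steps of 0.2, so that differences under that size at single sites rest on a depth that was not used here.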
